A study of Rattus norvegicus with 8 samples.

Results

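The genes of the colony-stimulating factor receptors and ligands were followed in peritoneal macrophages recovered from rats after injection of carbon nanotubes. The set was defined by gene symbol and holds 7 genes, Csf1, Il34, Csf1r, Csf2ra, Csf2rb, Csf3r and Il3ra, of the 23487 genes in the count table. All 7 were present in the table, and 6 had enough counts to be tested. Macrophages were obtained from female Wistar rats aged 8 weeks that had received the same mass of either particle by intraperitoneal injection and were sacrificed after 15 days. The particles were MWCNT-XNRI-7 (CNT-7), needle-like multi-walled carbon nanotubes that induce mesothelioma, and tangled carbon nanotubes (CNT-T), which do not. The cells were sorted by flow cytometry on high CD11b/c and dim His48 staining, which does not separate macrophages by origin. RNA was sequenced from 4 rats per particle, and the labels number them 3, 5, 10 and 11 for CNT-7 and 1, 2, 12 and 13 for CNT-T. Untreated rats were not analysed here, so that each difference is one between both particles. Each rat contributed 27195157 to 33732981 estimated counts.

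Colony-stimulating factors are the cytokines that keep macrophages and granulocytes alive, make them divide and set their phenotype. CSF1 (M-CSF) and IL-34 act through CSF1R, a receptor tyrosine kinase on which most tissue macrophages depend. GM-CSF and IL-3 act through receptors with their own alpha chain (CSF2RA, IL3RA) and a shared beta chain (CSF2RB), which carries the kinase JAK2 and signals through STAT5. CSF3R is the receptor of G-CSF and is best known from neutrophils.

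Macrophages after CNT-7 had more transcript of the shared beta chain Csf2rb and less of Csf1r than macrophages after CNT-T. Csf2rb was 2.05-fold higher (95% confidence interval 1.52 to 2.74) and Csf1r was at 0.797 of the CNT-T level (0.695 to 0.915). The genes of both alpha chains, of CSF1 and of CSF3R did not pass the test, and Il34 was not detected above the smallest measurable level. Thus 1 of the 6 tested genes rose, whereas 13.9% of all 12124 genes tested did, and 1 fell, whereas 14.0% of all genes did. Together 2 of 6 passed, a share near the 27.9% of all genes. Both particle groups were separate, without overlap, in the same 2 genes, as they were in 24.9% of all genes tested. The threshold was an adjusted p-value of 0.10 in the quasi-likelihood test of edgeR. The level of each gene in each rat is shown in the plot of CPM by rat, and CPM are counts scaled to a library of 1000000.

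**Figure D1:**
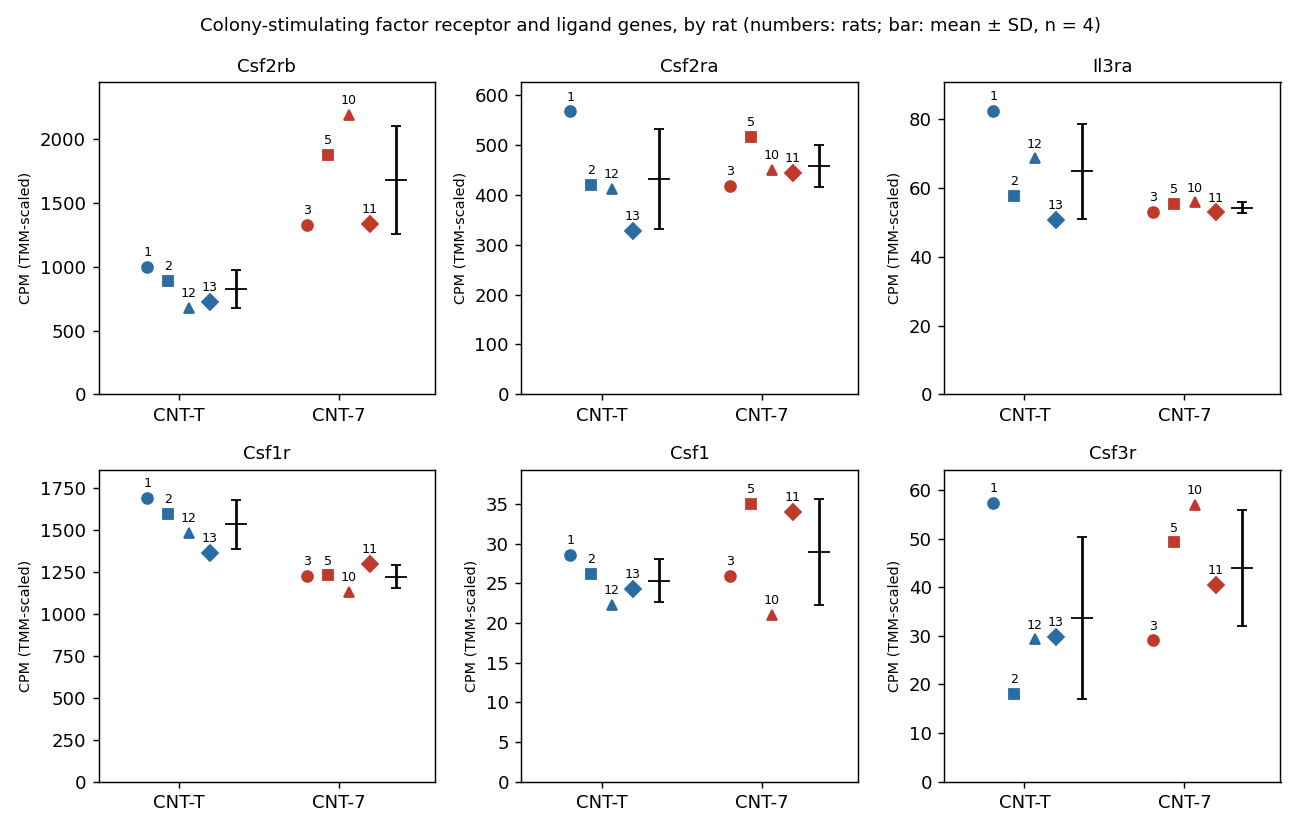
TMM-scaled CPM (vertical axes, from 0) of 6 genes in each of 4 CNT-T rats (blue) and 4 CNT-7 rats (red), with rat numbers beside the points and bars for mean ± SD. Csf2rb ranged from 1330.3 to 2191 CPM in CNT-7 rats, compared with 676 to 1001 CPM in CNT-T rats, Csf1r was lower in every CNT-7 rat, and the other 4 genes overlapped.

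The shared beta chain Csf2rb (ENSRNOG00000000187) had 1330.3, 1879, 2191 and 1335 CPM in CNT-7 rats 3, 5, 10 and 11. In CNT-T rats 1, 2, 12 and 13 it had 1001, 888, 676 and 728 CPM. The lowest CNT-7 rat was therefore above the highest CNT-T rat, and rats 5 and 10 were the highest of all. The means were 1684 ± 425 CPM (SD, n = 4) with CNT-7, as opposed to 823 ± 149 CPM (SD, n = 4) with CNT-T, with a log2 fold change of 1.03 (standard error 0.19, edgeR adjusted p = 0.0050). This rise was the 586th largest among the 12124 genes tested, of which the highest 10% lay above a log2 fold change of 0.53. Csf2rb passed the test when any of the 8 rats was left out, with log2 fold changes between 0.88 and 1.14.

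Csf2rb is also transcribed by eosinophils, mast cells, neutrophils and dendritic cells. The 4 eosinophil markers Ccr3, Il5ra, Epx and Prg2 had a summed level of 0.18 to 9.33 CPM in CNT-7 rats, compared with 0.11 to 0.36 CPM in CNT-T rats, with Epx at 0 counts in every rat. CNT-7 rat 3, which had the highest sum, had, together with rat 11, the lowest Csf2rb of its group. The 6 mast cell markers had a summed level of 0.59 to 1.41 CPM in CNT-7 rats, compared with 0 to 1.65 CPM in CNT-T rats. The 9 neutrophil markers had a summed level of 3.08 to 9.68 CPM in CNT-7 rats, compared with 6.66 to 11.1 CPM in CNT-T rats, with Mpo at 0 counts in every rat. Of the 4 neutrophil markers tested, S100a8 fell (log2 fold change -1.46, edgeR adjusted p = 0.016), and S100a9, Cxcr2 and Elane did not pass, with log2 fold changes of 1.23, 1.26 and -0.68, so that the median of the list was 0.27. The 5 dendritic cell markers had a summed level of 5.61 to 11.6 CPM in CNT-7 rats, compared with 4.37 to 8.38 CPM in CNT-T rats. Zbtb46 made up most of this sum except in CNT-7 rat 10 (2.89 of 6.14 CPM), though only narrowly in CNT-7 rat 5 (5.86 of 11.6 CPM). It did not pass the test (log2 fold change -0.22, edgeR adjusted p = 0.65). Clec9a and Ccr7 rose, from 0.39 ± 0.17 to 1.32 ± 0.63 and from 0.10 ± 0.12 to 1.50 ± 1.18 CPM (SD, n = 4), while Flt3 had at most 13 counts in any rat. The part of these cells in the difference of Csf2rb was not tested, and in sorted bulk samples fewer cells of a type and less RNA per cell cannot be told apart.

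The alpha chain of the GM-CSF receptor, Csf2ra (ENSRNOG00000049782), did not pass the test. It had 418, 517, 451 and 443 CPM in CNT-7 rats 3, 5, 10 and 11. In CNT-T rats 1, 2, 12 and 13 it had 567, 420.2, 412 and 327 CPM. All CNT-7 values fell between the extremes of the CNT-T values, of which rat 1 was the highest and rat 13 the lowest. Its log2 fold change was 0.08 (standard error 0.15, edgeR adjusted p = 0.75), with a 95% confidence interval from 0.84-fold to 1.34-fold, which does not reach the change of Csf2rb. The sign of this small difference turned without CNT-T rat 13 (log2 fold change -0.030, edgeR adjusted p = 0.90, with adjusted p-values between 0.18 and 0.96 over all alternatives).

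The alpha chain of the IL-3 receptor, Il3ra (ENSRNOG00000001325), was nearly equal in the CNT-7 rats, with 53.1, 55.5, 55.8 and 52.9 CPM in rats 3, 5, 10 and 11. It was more variable after CNT-T, with 82.5, 57.8, 68.7 and 50.8 CPM in rats 1, 2, 12 and 13. Of the CNT-T rats 3 were above all CNT-7 rats and rat 13 was below them. The log2 fold change was -0.26 (standard error 0.13, edgeR adjusted p = 0.21, 95% confidence interval 0.68-fold to 1.03-fold). Without CNT-T rat 13 it was -0.36 and passed the threshold (edgeR adjusted p = 0.059), and over all alternatives the adjusted p-value lay between 0.059 and 0.45.

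Both alpha chain promoters are shown because neither gene passed the test while the gene of the shared beta chain did. They are the 250 bases upstream of the RefSeq transcription start in build GRCr8, at chr14:118118-118367, minus strand (Csf2ra) and chr12:21437251-21437500, minus strand (Il3ra). Capitals mark GAGGAA, the core bound by PU.1 (encoded by Spi1), which was searched on both strands and was found in 23.3% of 33469 RefSeq promoters of this length. Csf2ra held 1 match, 41 bases upstream of the start, and Il3ra held none. Of the other members with a promoter, Csf1r, which fell, held 2 matches, and Csf3r, which did not pass, held 1. No promoter of Csf2rb was available, so the alpha chain promoters could not be compared with that of the gene that rose.
Csf2ra: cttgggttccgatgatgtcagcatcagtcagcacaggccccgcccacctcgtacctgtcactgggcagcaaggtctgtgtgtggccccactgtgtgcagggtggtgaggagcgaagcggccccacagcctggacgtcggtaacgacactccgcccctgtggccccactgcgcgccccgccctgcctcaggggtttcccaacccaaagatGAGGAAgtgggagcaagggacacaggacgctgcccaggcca
Il3ra: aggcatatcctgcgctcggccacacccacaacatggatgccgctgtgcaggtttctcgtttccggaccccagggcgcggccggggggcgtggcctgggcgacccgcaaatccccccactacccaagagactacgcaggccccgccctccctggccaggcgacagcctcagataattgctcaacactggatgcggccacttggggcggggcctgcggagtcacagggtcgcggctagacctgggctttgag

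As the chains of a receptor are needed together, the ratio of beta to alpha chain transcripts was taken within each rat and expressed on the log2 scale relative to the mean of the CNT-T rats. For Csf2rb over Csf2ra it was 0.73, 0.92, 1.34 and 0.65 in CNT-7 rats 3, 5, 10 and 11. In CNT-T rats 1, 2, 12 and 13 it was -0.12, 0.14, -0.23 and 0.21. The groups did not overlap, and the mean after CNT-7 was 0.91 ± 0.31 (SD, n = 4) against a spread of 0.21 (SD, n = 4) after CNT-T, that is, a ratio 1.88-fold higher. For Csf2rb over Il3ra the values lay between 0.98 and 1.62 after CNT-7 and between -0.37 and 0.27 after CNT-T, a ratio 2.38-fold higher. These ratios are given as a description without a test, since the genes were chosen with earlier results known.

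**Figure D2:**
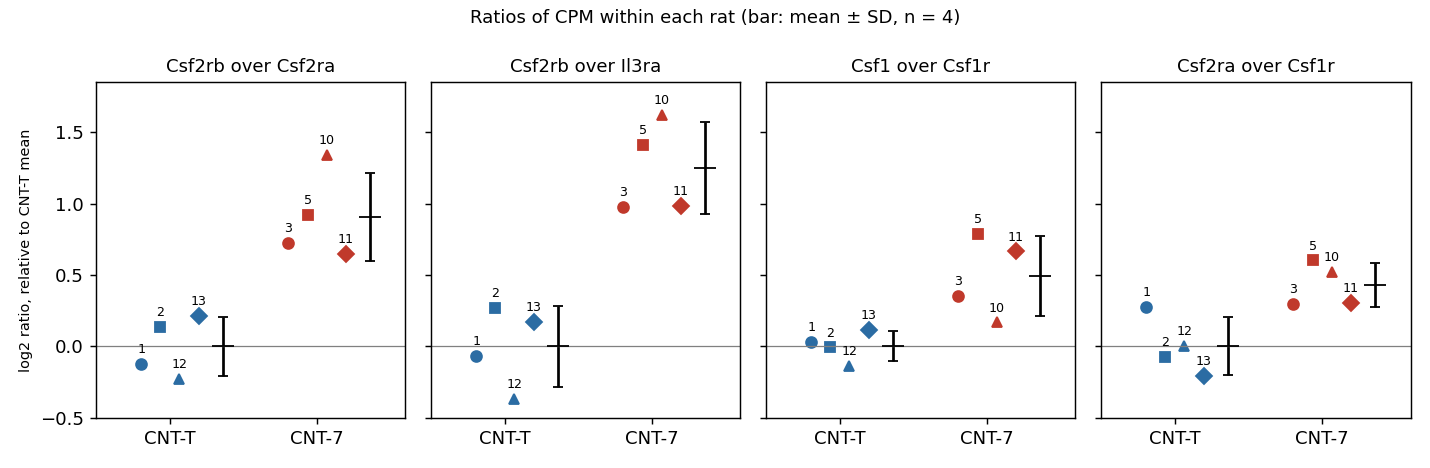
Log2 ratio of the CPM of 2 genes within each rat, relative to the mean of the 4 CNT-T rats (vertical axis), for 4 pairs of genes, with rat numbers beside the points and bars for mean ± SD. Both ratios with Csf2rb were at least 0.65 in all CNT-7 rats and at most 0.27 in all CNT-T rats, and the ratios with Csf1r differed less.

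The receptor of CSF1 and IL-34, Csf1r (ENSRNOG00000018414), had 1225, 1227, 1131 and 1297 CPM in CNT-7 rats 3, 5, 10 and 11. In CNT-T rats 1, 2, 12 and 13 it had 1691, 1592, 1481 and 1359 CPM. All CNT-7 rats were below all CNT-T rats, although CNT-7 rat 11 and CNT-T rat 13 were close. The means were 1220.0 ± 68.2 CPM (SD, n = 4) with CNT-7, as opposed to 1531 ± 143 CPM (SD, n = 4) with CNT-T, with a log2 fold change of -0.33 (standard error 0.089, edgeR adjusted p = 0.027). The size of this fall lay inside the range of the middle 80% of all genes, between log2 fold changes of -0.51 and 0.53. It passed the test when any rat was left out, with log2 fold changes between -0.38 and -0.28 and edgeR adjusted p-values between 0.019 and 0.070.

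Several general macrophage genes were lower together with Csf1r. Of 8 markers of the labelled cell type, all tested, 4 fell and 1 rose after CNT-7. Of all genes tested, 14.0% fell and 13.9% rose. The median log2 fold change of these markers was -0.30 against 0.0083 for all genes. Fcgr1a, a high-affinity receptor of IgG, was the only 1 of these 4 to fall in every fit with a rat left out (log2 fold change -0.54, edgeR adjusted p = 0.011). Cd68, Aif1 and Ctss had log2 fold changes of -0.34, -0.31 and -0.30 with edgeR adjusted p-values between 0.071 and 0.088, and each lost its call in 6 of the 8 fits with a rat left out. Cd14, the co-receptor of lipopolysaccharide, rose (0.46, edgeR adjusted p = 0.0071). Lyz2 was lower in every CNT-7 rat but just over the threshold (log2 fold change -0.47, edgeR adjusted p = 0.1002). It stayed uncalled under 11 of 15 alternatives and was called as lower under the others, among them DESeq2 (adjusted p = 0.029). Mertk and Mrc1 did not pass either, with log2 fold changes of 0.08 and 0.58. The summed markers, of which Lyz2 made up most, ranged from 15188 to 22229 CPM in CNT-7 rats, compared with 23358 to 33437 CPM in CNT-T rats. Among monocyte markers, Plac8 fell (log2 fold change -0.65, edgeR adjusted p = 0.011). The part of these differences in that of Csf1r was not tested.

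Among the ligands, Csf1 (ENSRNOG00000018659) was detected in the sorted cells of every rat. It had 26.0, 35.0, 21.0 and 34.0 CPM in CNT-7 rats 3, 5, 10 and 11, and 28.6, 26.2, 22.3 and 24.3 CPM in CNT-T rats 1, 2, 12 and 13. CNT-7 rats 5 and 11 were above and CNT-7 rat 10 was below all CNT-T rats. The log2 fold change was 0.19 (standard error 0.16, edgeR adjusted p = 0.45, 95% confidence interval 0.89-fold to 1.47-fold). The ratio of Csf1 to Csf1r, on the same relative log2 scale as above, was 0.36, 0.79, 0.17 and 0.66 in CNT-7 rats 3, 5, 10 and 11 but only -0.14 to 0.11 across CNT-T rats. The groups did not overlap in this ratio (mean 0.49 ± 0.28 after CNT-7, SD, n = 4), for which no test was made. The ratio of Csf2ra to Csf1r was 0.43 ± 0.16 (SD, n = 4) after CNT-7, and its lowest CNT-7 value, 0.299, was close to that of CNT-T rat 1, 0.274.

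Il34 (ENSRNOG00000017602), the other ligand of CSF1R, had 2 counts in CNT-7 rat 3, 1 count in CNT-7 rat 5 and 0 counts in the other 6 rats. A level of 3 counts corresponded to between 0.0887 and 0.109 CPM, and Il34 was below it in every rat. It was therefore not tested, and no fold change is given. Mesothelial cells and fibroblasts, which are known sources of Csf1 and Il34, left little signal, as their 10 markers had a summed level of 0.58 to 1.27 CPM in CNT-7 rats, compared with 0.20 to 0.69 CPM in CNT-T rats, with Upk3b and Wt1 at 0 counts in every rat.

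The G-CSF receptor Csf3r (ENSRNOG00000008759) varied most between rats of the same group. It had 29.1, 49.2, 57.0 and 40.5 CPM in CNT-7 rats 3, 5, 10 and 11, and 57.4, 18.1, 29.3 and 29.8 CPM in CNT-T rats 1, 2, 12 and 13. CNT-T rat 1 was the highest of all 8 rats and CNT-T rat 2 the lowest. The log2 fold change was 0.39 (standard error 0.32, edgeR adjusted p = 0.45, 95% confidence interval 0.79-fold to 2.16-fold). Without CNT-T rat 1 it was 0.77 and passed the threshold (edgeR adjusted p = 0.064), while over all alternatives the adjusted p-value lay between 0.064 and 0.74. CNT-T rat 1 also had the highest sum of neutrophil markers, 11.1 CPM, of which S100a8 alone made up 9.03 CPM. Of the other neutrophil markers tested, S100a9 was highest of the CNT-T group in this rat (0.65 CPM). Cxcr2 was not (0.39 CPM), and Elane was the lowest of the group (0.91 CPM). The part of neutrophils was not tested. The same rat was the highest of the CNT-T group in all 6 tested genes.

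**Figure D3:**
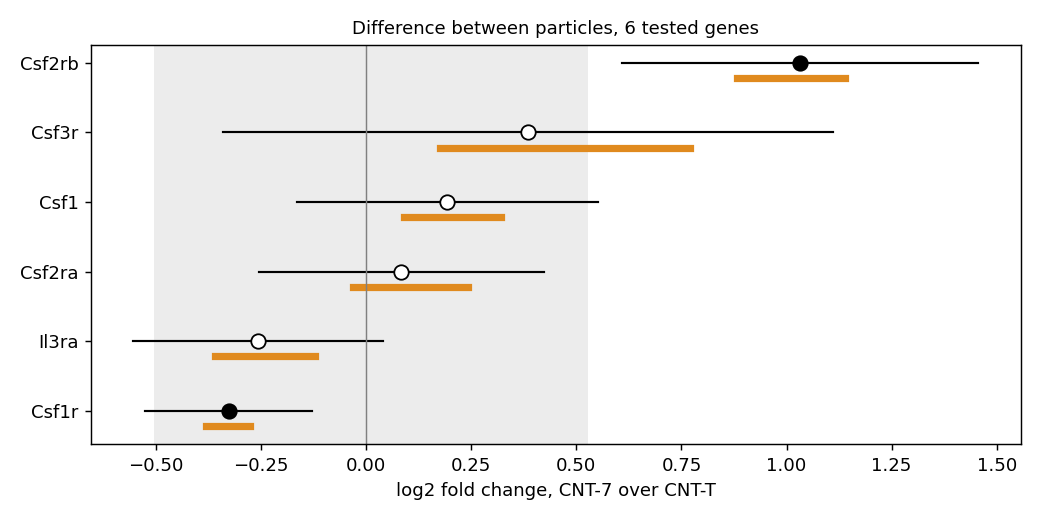
Log2 fold change between CNT-7 and CNT-T, positive where higher with CNT-7 (horizontal axis) for 6 genes, with 95% confidence intervals (black lines), filled points for an edgeR adjusted p-value under 0.10, the range over fits with a rat left out (orange), and the 10th to 90th percentile of all genes tested (grey). Only the interval of Csf2rb lay wholly outside the grey range, and that of Csf1r was below 0 but mostly inside it.

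The ligands of the beta chain receptors and of CSF3R were at or near 0 in these macrophages. Of 14 further growth factor and receptor symbols, 13 were in the table and 12 were below the filter. Csf3, Il3, Il5 and Epo had 0 counts in every rat, and Csf2, the gene of GM-CSF, had 1 count in CNT-7 rat 11 and 0 counts elsewhere. Il5ra, the alpha chain of the IL-5 receptor, had 17 counts in CNT-7 rat 3 and at most 1 count in any other rat. The kinase receptor genes Flt3 and Kit had at most 13 and 2 counts. Flt3lg, the ligand of FLT3, was the 1 gene tested, with 6.62 to 10.9 CPM over all rats (log2 fold change 0.15, edgeR adjusted p = 0.56).

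In the signalling relay of the beta chain and of CSF3R, the largest rises after CNT-7 were those of Cish and Socs3, inhibitors that JAK-STAT signalling is known to induce. Of 16 genes, 15 were tested, 7 rose, 1 fell and 7 did not pass, where 13.9% of all genes rose and 14.0% fell. Their median log2 fold change was 0.24. Cish, an inhibitor of STAT5 signalling, had 14.4, 21.1, 24.3 and 10.2 CPM in CNT-7 rats 3, 5, 10 and 11. In CNT-T rats 1, 2, 12 and 13 it had 1.76, 2.16, 1.68 and 0.68 CPM. All CNT-7 rats were far above all CNT-T rats (log2 fold change 3.46, standard error 0.36, edgeR adjusted p = 0.00040). Socs3, an inhibitor of cytokine receptors that include CSF3R, had 21.7, 34.8, 42.0 and 19.8 CPM in the same CNT-7 rats and between 1.62 and 5.41 CPM after CNT-T (8.00-fold, standard error 0.36 on the log2 scale, edgeR adjusted p = 0.00073). In both genes rats 10 and 5 were the highest of the CNT-7 group, as they were in Csf2rb, whereas among the CNT-T rats Cish was highest in rat 2 and Csf2rb in rat 1. The survival kinases Pim2 and Pim1 had log2 fold changes of 0.75 and 0.70 (edgeR adjusted p = 0.056 and 0.035). Pim2 lost its call in 5 of the 8 fits with a rat left out, and its adjusted p-values lay between 0.038 and 0.15 over all alternatives.

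The remaining called genes of this relay were named after their values were seen. Jak2, the kinase bound to the beta chain, had 123 ± 12.6 CPM with CNT-7, as opposed to 81.5 ± 6.34 CPM with CNT-T (SD, n = 4; log2 fold change 0.59, edgeR adjusted p = 0.0024). Lyn, a Src family kinase, and Ywhaz, a 14-3-3 protein gene, had log2 fold changes of 0.31 and 0.21 (edgeR adjusted p = 0.017 and 0.070). Ywhaz lost its call in 5 of the 8 fits with a rat left out. Bcl2l1, which encodes the survival protein BCL-XL, fell (log2 fold change -0.49, edgeR adjusted p = 0.036). The STAT genes themselves did not pass, and Stat5a, Stat5b and Stat3 had log2 fold changes of -0.10, -0.09 and 0.24.

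**Figure D4:**
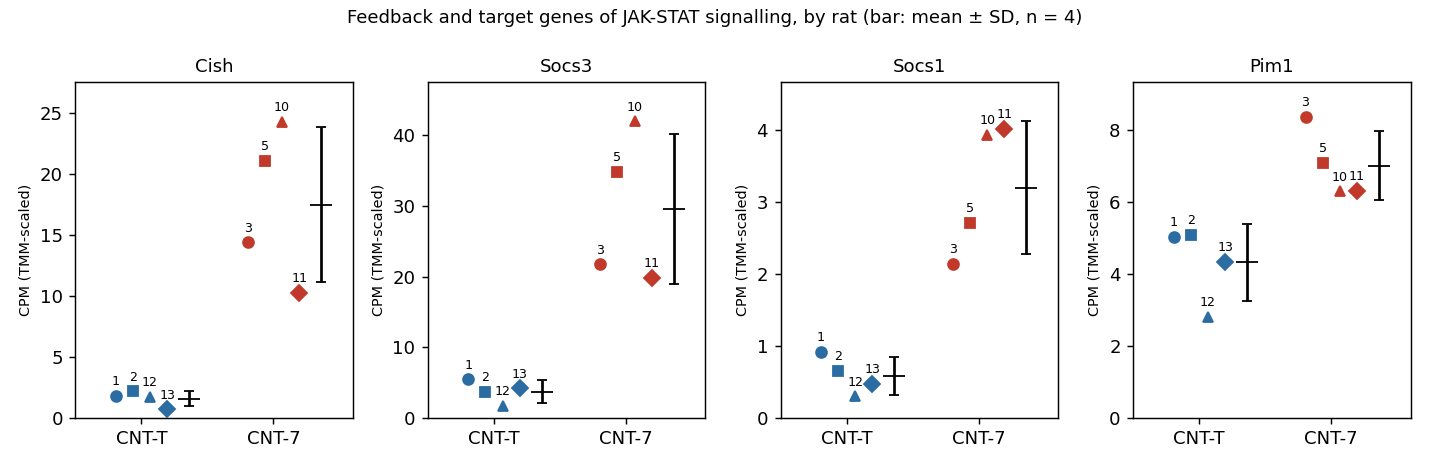
TMM-scaled CPM (vertical axes, from 0) of Cish, Socs3, Socs1 and Pim1 in each of 4 CNT-T rats (blue) and 4 CNT-7 rats (red), with rat numbers beside the points and bars for mean ± SD. No CNT-7 rat overlapped with a CNT-T rat in any of the 4 genes, and Cish and Socs3 were highest in CNT-7 rats 10 and 5.

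The promoters of Cish, Socs3 and Socs1 are shown because these inhibitors had the largest rises in both signalling lists. They are the 250 bases upstream of the RefSeq transcription start in build GRCr8, at chr8:116850719-116850968, plus strand (Cish), chr10:103694769-103695018, minus strand (Socs3) and chr10:5389324-5389573, plus strand (Socs1). Capitals mark TTCNNNGAA, the palindromic motif of STAT5, which was found in 7.67% of 33469 RefSeq promoters of this length. Cish held 4 matches, 241, 230, 136 and 119 bases upstream of the start counted from their first base, Socs1 held 1 at 196 bases, and Socs3 held none. Of the other genes of the beta chain list, Pim1, Pim2 and Jak2, which rose, held none, and Bcl2l1, which fell, held 2 matches in 2 of its 4 RefSeq promoters and none in the others. A count of 4 or more was reached by 2 of all 33469 promoters, a limit chosen after the Cish count was seen.
Cish: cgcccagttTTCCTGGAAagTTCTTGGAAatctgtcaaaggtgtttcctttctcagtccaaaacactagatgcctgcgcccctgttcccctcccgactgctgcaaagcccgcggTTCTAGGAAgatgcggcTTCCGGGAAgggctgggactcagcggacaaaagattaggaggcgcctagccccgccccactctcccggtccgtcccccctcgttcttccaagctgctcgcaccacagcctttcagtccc
Socs3: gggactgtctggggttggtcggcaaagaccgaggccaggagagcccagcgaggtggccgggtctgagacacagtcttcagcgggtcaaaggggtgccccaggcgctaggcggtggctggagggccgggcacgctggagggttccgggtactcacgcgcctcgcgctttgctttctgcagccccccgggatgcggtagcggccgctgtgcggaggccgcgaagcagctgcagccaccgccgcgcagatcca
Socs1: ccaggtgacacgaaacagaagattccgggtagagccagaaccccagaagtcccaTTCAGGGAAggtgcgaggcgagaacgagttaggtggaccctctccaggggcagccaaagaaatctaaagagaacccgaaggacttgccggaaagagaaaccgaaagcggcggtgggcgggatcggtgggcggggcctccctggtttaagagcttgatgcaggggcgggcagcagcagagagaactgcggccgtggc

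Of 21 genes that act downstream of CSF1R, all were tested, 4 rose, 2 fell and 15 did not pass, a share of calls near the 27.9% of all genes. Their median log2 fold change was 0.11. Socs1, an inhibitor of JAK kinases, had 2.14, 2.71, 3.94 and 4.02 CPM in CNT-7 rats 3, 5, 10 and 11 and between 0.30 and 0.91 CPM in the CNT-T rats (log2 fold change 2.45, edgeR adjusted p = 0.0018). The adaptors Grb2 and Dok1 had log2 fold changes of 0.44 and 0.32 (edgeR adjusted p = 0.0059 and 0.046), and Dok1 was not called without CNT-T rat 2, 12 or 13 (edgeR adjusted p up to 0.12). The kinase Src had 1.48 to 5.16 CPM in CNT-7 rats, compared with 1.48 to 2.15 CPM in CNT-T rats (log2 fold change 0.93, edgeR adjusted p = 0.083), and lost its call in 7 of the 8 fits with a rat left out, with adjusted p-values between 0.0076 and 0.22 over all alternatives. The 2 genes that fell, named after their values were seen, were Pik3r1, a regulatory subunit of PI3 kinase, and Mapk3, which encodes ERK1 (log2 fold changes -0.31 and -0.32). Pik3r1 was not called without CNT-7 rat 3 (edgeR adjusted p = 0.13, with 0.024 to 0.13 over all alternatives). Akt1, Inpp5d, Cbl and Tyrobp, which encode a core kinase, a phosphatase, a ubiquitin ligase and an adaptor of this cascade, had log2 fold changes between -0.11 and -0.01.

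**Figure D5:**
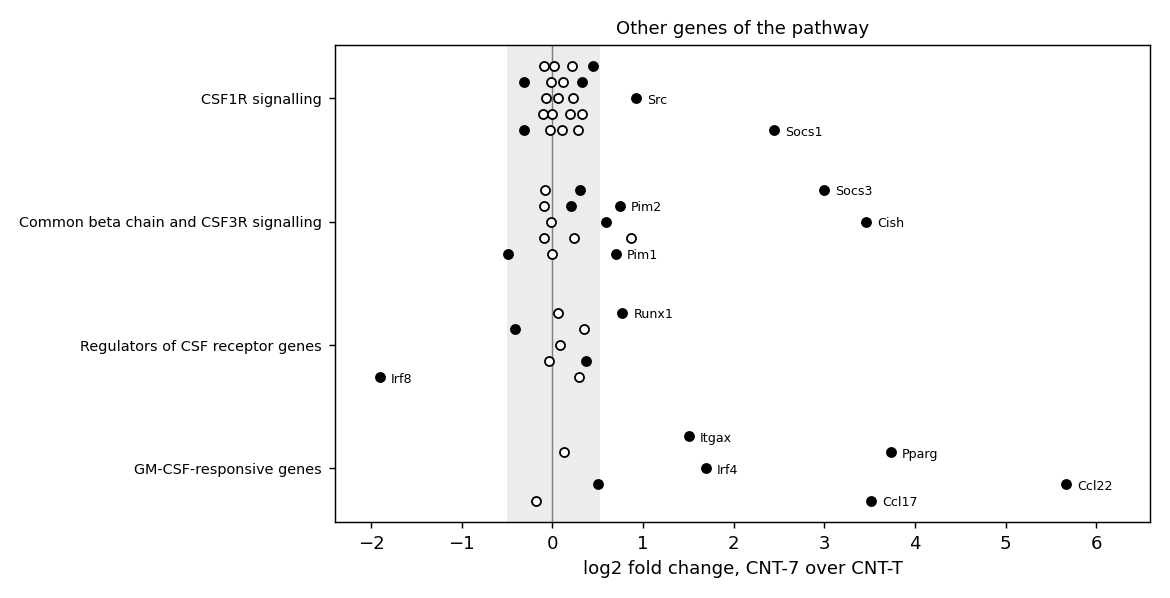
Log2 fold change between CNT-7 and CNT-T, positive where higher with CNT-7 (horizontal axis) for the tested genes of 4 lists, filled where the edgeR adjusted p-value was under 0.10, with the 10th to 90th percentile of all genes tested in grey; the vertical scatter within a list has no meaning. Cish, Socs3 and Socs1 lay at log2 fold changes of 2.45 or more, Irf8 at -1.90, and most genes downstream of CSF1R within the grey range. The fitted values of Ccl22 and Pparg rest on at most 11 and 4 counts in any CNT-T rat.

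Of 9 transcription factors that bind the genes of CSF receptors, 2 rose, 2 fell and 5 did not pass, where 13.9% of all genes rose and 14.0% fell. Their median log2 fold change was 0.081. Irf8, which directs monocyte development, had 20.9, 23.4, 17.5 and 35.4 CPM in CNT-7 rats 3, 5, 10 and 11 and between 75.5 and 123 CPM in the CNT-T rats (log2 fold change -1.90, standard error 0.23, edgeR adjusted p = 0.00072). Fli1, an ETS factor, also fell (log2 fold change -0.41, edgeR adjusted p = 0.0047). Runx1 rose from 13.1 ± 0.78 to 22.4 ± 2.31 CPM (SD, n = 4; log2 fold change 0.77, edgeR adjusted p = 0.00084). Spi1, which encodes PU.1, rose from 257 ± 26.0 to 332 ± 24.4 CPM (SD, n = 4; log2 fold change 0.37, edgeR adjusted p = 0.018). PU.1 and RUNX1 are known to bind regulatory elements of Csf1r.

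Among genes that GM-CSF is known to induce in macrophages or monocyte-derived cells, 8 of 9 were tested, 6 rose and 2 did not pass, where 13.9% of all genes rose. Their median log2 fold change was 1.60 against 0.0083 for all genes. The list was chosen with results for Irf4 and Itgax known. Both are among the 6 that rose, and the median lay between their values. The count and the median are therefore a description of the list and not a test of it. Ccl22, a chemokine for CCR4-bearing T cells, had 394, 257, 214 and 26 counts in CNT-7 rats 3, 5, 10 and 11 and 0, 11, 7 and 0 counts in CNT-T rats 1, 2, 12 and 13 (edgeR adjusted p = 0.0033). Ccl17, which acts on the same receptor, rose from 1.61 ± 0.86 to 18.7 ± 11.2 CPM (SD, n = 4; log2 fold change 3.52, edgeR adjusted p = 0.0015). Pparg, the nuclear receptor of alveolar macrophages, had 40, 32, 29 and 19 counts in the CNT-7 rats and 0, 3, 2 and 4 counts in the CNT-T rats (edgeR adjusted p = 0.0016), so that the CNT-T level was near the smallest measurable one. Irf4 (log2 fold change 1.70) and, outside the rule for named genes, Itgax (1.50) and Bhlhe40 (0.51) also rose, whereas Bhlhe41 and Fabp4 had 0.13 and -0.18. The order of the CNT-7 rats differed among these genes. Rat 3 was the highest in Ccl22, Ccl17, Pparg, Irf4 and Itgax, whereas Bhlhe40 had 401, 536, 523 and 391 CPM in rats 3, 5, 10 and 11, with rats 5 and 10 the highest as in Csf2rb. These genes are also known to respond to cytokines other than GM-CSF.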

How the data were processed

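Peritoneal macrophages of 4 rats given CNT-7 and 4 given CNT-T were sorted by flow cytometry and their polyadenylated RNA was sequenced with a stranded kit. The authors quantified the reads with Salmon against Ensembl cDNA sequences of the rat (Rnor_6.0), imported them with tximeta and deposited estimated counts per gene, as whole numbers and without normalization. Its version is not given in the sources used here.

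All 8 columns were used. The quasi-likelihood test of edgeR 4.0.16 (R 4.3.3) compared both groups over all genes, with TMM normalization, the default filter (minimum count 10, minimum total 15), Benjamini-Hochberg adjustment and a threshold of 0.10, as in the study. Of 23487 genes, 12124 were tested. Standard errors were derived from the F statistic. The smallest measurable level is 3 counts, which covers counting error only.

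Members and lists were chosen with earlier results of these data known. Named were all 7 members, at most 4 called genes per pathway list by absolute log2 fold change, and the genes most like each tested member. The last are those with the highest Pearson's r of log2 CPM (prior count 2) among genes with a symbol and at least 1 CPM. For Csf2rb and Csf1r 3 such genes are named, and for Csf2ra, Il3ra, Csf3r and Csf1 only the closest. Some genes of the lists are not reported here. Mcl1, Flt3l and Cd79a were not found in the table under these symbols. Promoters of RefSeq (GRCr8) were matched by symbol for 4 of 7 members and 11 of 16 genes of the beta chain list, and this build differs from that of the counts. Alternatives were DESeq2 1.42.0, upper-quartile or no normalization, no filter, a minimum of 10 counts per rat, a threshold of 0.05, a block for low or high rat numbers, and leaving out any single rat. The fits were tested on simulated counts.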

Additional observations from a re-analysis of the deposited data

How the results depend on the processing

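No paired analysis was possible because no rat number occurs in both groups. Csf2rb and Csf1r kept their direction and their side of the threshold under all 15 alternatives, with log2 fold changes from 0.88 to 1.14 and from -0.38 to -0.28 and edgeR or DESeq2 adjusted p-values of at most 0.020 and 0.070. Leaving out single rats, log2 fold changes ranged from 0.18 to 0.77 for Csf3r, from -0.36 to -0.12 for Il3ra, from -0.030 to 0.24 for Csf2ra and from 0.089 to 0.32 for Csf1. Csf3r entered the calls without CNT-T rat 1 and Il3ra without CNT-T rat 13, so that between 1 and 2 members rose and between 1 and 2 fell. In these fits, the calls among the genes downstream of CSF1R ranged from 2 to 5 higher (2 without CNT-T rat 2 or CNT-T rat 12) and from 1 to 2 lower (1 without CNT-7 rat 3), and with the block for rat numbers 6 were higher. DESeq2 called 4 regulators of CSF receptor genes higher in place of 2, with Cebpa and Cebpe at adjusted p-values of 0.097 and 0.099. The macrophage marker Mertk, which was not called, ranged from -0.18 to 0.24, being -0.18 without CNT-7 rat 11 and -0.038 without CNT-T rat 1. With 10 counts required in every rat Ccl22, Pparg and Socs1 were not tested. Causes were not tested. The median log2 fold change of all genes lay between 0.00012 and 0.027 in all these fits.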

Other observations

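Among 10162 other genes with a symbol and at least 1 CPM, Csf2rb was followed most closely over the 8 rats by Ip6k1, which encodes an inositol phosphate kinase, Rab7a, a GTPase of late endosomes, and Vsir, which encodes the checkpoint molecule VISTA (Pearson's r of log2 CPM 0.993, 0.987 and 0.986). The same 3 genes had r between 0.94 and 0.97 after the group means were removed, although Rab7a itself did not pass the test between particles (log2 fold change 0.16, edgeR adjusted p = 0.12). Csf1r was followed most closely by Fasn, the fatty acid synthase, Ankrd27 and Zcchc24 (r 0.990, 0.984 and 0.983), and Fasn fell from 235 to 113 CPM on average (log2 fold change -1.07, edgeR adjusted p = 0.0049). The closest genes were Mark4 for Csf2ra (r 0.978), Mfsd13a for Il3ra (0.978), Tpm1 for Csf3r (0.952) and Tp53bp2 for Csf1 (0.932), and these 4 genes did not pass the test. These values are the highest of many and describe the 8 rats, which share the group difference and the scaling of their libraries.

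Markers of lymphocytes summed to 9.08 CPM in CNT-7 rat 5 and to between 1.51 and 3.32 CPM in the other 7 rats. In the 52 groups of 4 rats formed by the members, the named pathway genes and the ratios, no rat stood apart by Dixon's ratio, where 2.6 groups are expected by chance.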
